A study of Rattus norvegicus with 2 samples.

Results

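Genes of motile cilia and of the ependymal lining of the brain ventricles were followed through 2 two-colour expression arrays of rat neural precursor cells. The set held 57 genes, listed by symbol, and its members were found by matching the RefSeq accession of each array probe to a rat gene. Of these, 56 symbols were matched and 40 had a probe, among 15442 genes with a named probe in all. Both arrays together measured 31 of them, meaning that at least 1 probe was well above background in at least 1 channel.

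Cortical precursor cells of Sprague-Dawley rat embryos at day 14 (labelled SD Rat) received 10 ng/mL of bFGF, the mitogen of such cultures, and were transfected transiently with 4 µg of plasmid. The plasmids had the MSCV-IRES-EGFP backbone, either as empty vector or with rat Bcl-2, an inhibitor of apoptosis. On the first array (the withdrawal array) red held empty vector cells kept without bFGF for 2 days and green held empty vector cells with bFGF, which asks what differentiation changes. On the second, red is labelled as Bcl-2 cells with bFGF and green again as empty vector cells with bFGF, which asks for the effect of Bcl-2 while the mitogen is present. Each comparison has 1 array, no replicate and no dye swap, so no test was possible and every value describes these arrays alone. The labels give neither the share of cells that took up a plasmid nor any sorting of EGFP-positive cells.

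Motile cilia beat because dynein motors slide the microtubule doublets of the axoneme, under the control of radial spokes, a central pair and nexin links. Intraflagellar transport carries parts into the growing cilium and also builds the immotile primary cilium of dividing precursors. FOXJ1 switches on genes for motility, and RFX factors bind a promoter element, the X-box, shared by genes of both kinds of cilium. In the brain, multiciliated ependymal cells arise from radial glia and line the ventricles, and the choroid plexus epithelium next to them secretes transthyretin.

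The sign of every ratio has to be read with care. Across spots the 2 arrays opposed each other, with a Pearson r of -0.67 between log2 ratios over 42877 gene spots, and at -0.12 by the scanner software's ratio, so the direction of the ratios is unsettled. Bcl2 itself was at 0.39 on the withdrawal array and at -0.02 on the array labelled Bcl-2, each from 1 probe. Whether that probe lies in the transfected sequence is not known here. Negative control spots had a median net signal of 60 (green) and 2.5 (red) in the withdrawal comparison, and of 63.5 and 35 in the other. Repeated spots of a probe differed with a median SD of 0.039 and 0.038 in log2 ratio, which is spotting and scanning error and covers no difference between cultures.

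The comparisons share the control RNA by label, so their values cannot count as independent, and the single channels show more. Among 22 members that stood well above background in each of the 4 channels, green of one array and green of the other differed by a median of 0.31 in log2 signal, although both are labelled as the same cells. Green on the Bcl-2 array was a median of 0.07 from red of the withdrawal array. Red on the Bcl-2 array was 0.09 from green of the withdrawal array and 0.35 from its red. For 17 of 22 members green on the Bcl-2 array lay nearer to red than to green of the withdrawal array. These distances were read for members alone, while the arrays opposed each other over all gene spots. They are thus not shown to be particular to cilium genes. Pierce1 differed by 2.41 between the green channels, Foxj1 by 1.91, Rfx2 by 1.18 and Enkur by 0.98, while against red of the withdrawal array these were at -0.06, -0.04, -0.09 and 0.07. Cfap20 differed by -1.03 and -0.02. Which RNA each channel held cannot be settled from these files, and the direction of every ratio above depends on it.

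**Figure D1:**
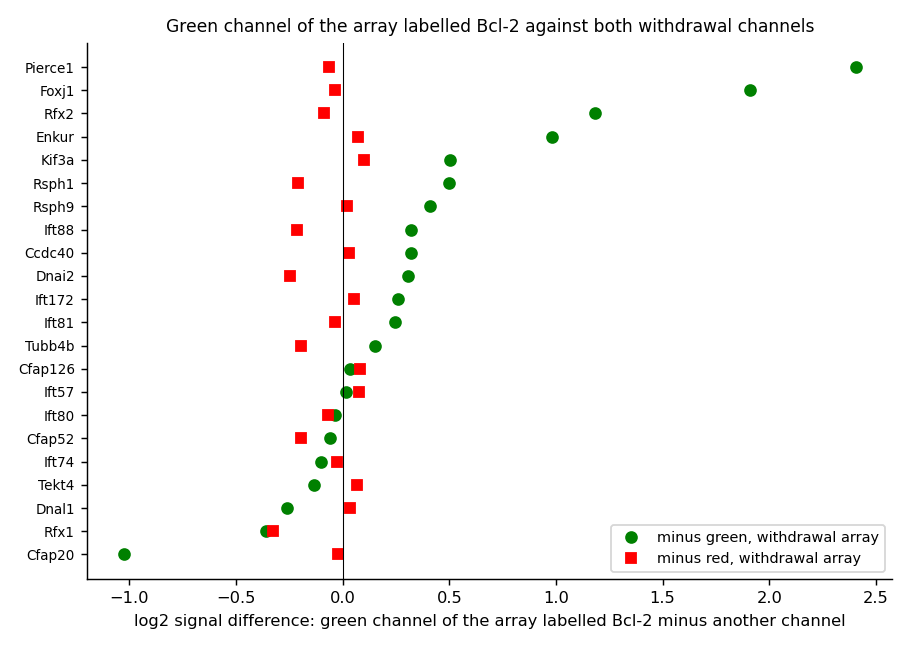
Difference in normalized log2 signal (x axis) between green on the Bcl-2 array and the green (circles) or red (squares) channel of the withdrawal array, for 22 genes (y axis) well above background in all 4 channels. The squares lie within 0.33 of 0, while the circles reach 2.41 for Pierce1 and -1.03 for Cfap20.

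By the loess ratio, the regulators Foxj1 and Rfx2, the axonemal genes Pierce1 and Enkur, and Ttr lay furthest from 0 on the withdrawal array. Cfap20 was among them in the opposite direction, while most dynein, spoke and transport genes lay within 2-fold. On the withdrawal array 3 of 30 measured members (10%) were at least 2-fold higher in red, where 2.42% of all measured genes were, and 1 (3.33%) was lower, where 0.47% were. On the array labelled Bcl-2, 0 of 30 were higher, where 0.557% of all genes were, and 5 (16.7%) were lower, where 2% were. A gene was called if its log2 ratio of red over green was at least 1 in size and its probes had 1 sign. Members were chosen with earlier results of these data known, so shares and medians set against all genes are not independent support. The median over the measured members was 0.28 for bFGF withdrawal and -0.25 on the other array, against 0.03 and -0.01 over all genes. With the sign turned these medians become -0.28 and 0.25, and higher and lower change places in every count of the array that is turned. Turning both arrays would leave them opposed, and which of them to turn, if any, cannot be settled here. By the scanner software's ratio 10 of 30 members were at least 2-fold higher on the withdrawal array, where 887 of 10852 genes were. Among the 10 were Dnai1, Dnai2, Dnali1, Kif9 and Cfap45, so the contrast between regulators and structural genes depends on the ratio used.

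**Figure D2:**
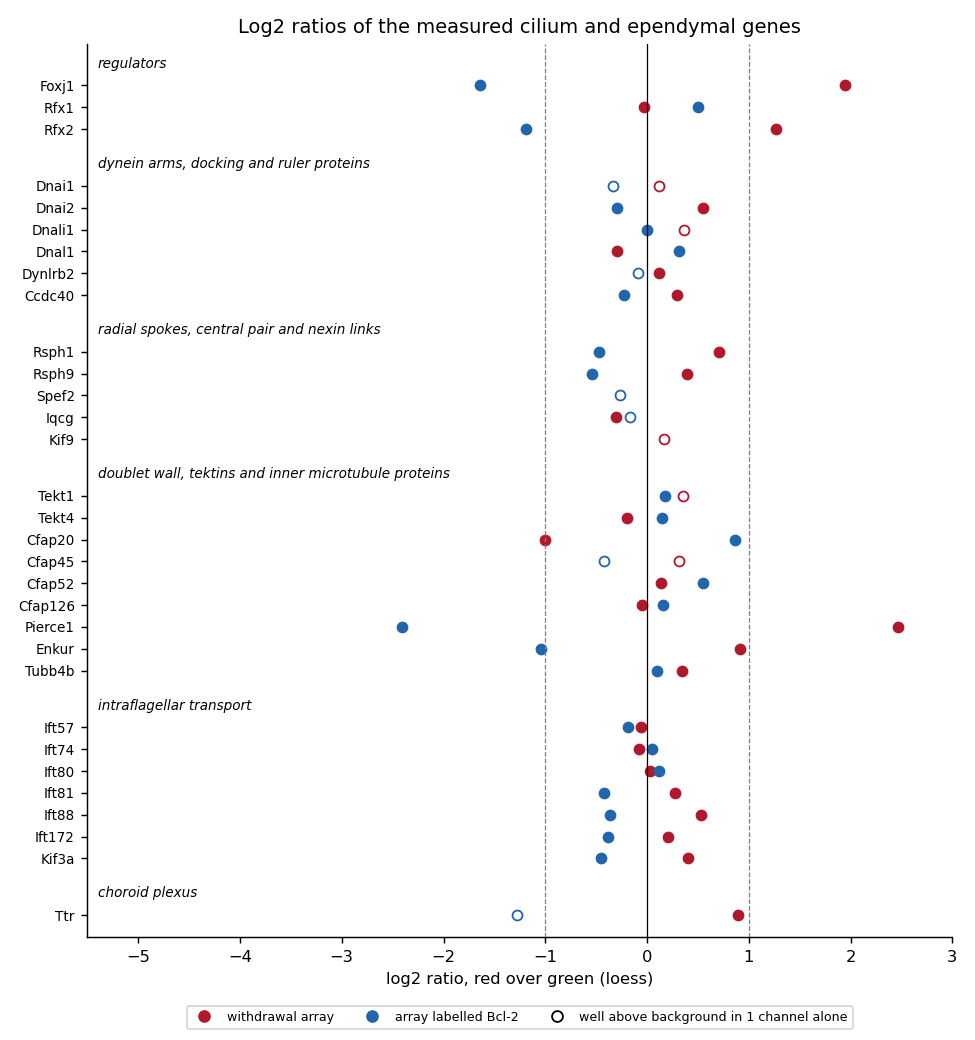
Log2 ratio of red over green (x axis) of each of the 31 measured genes (y axis, by role) on each of the 2 arrays; open points were well above background in 1 channel alone and dashed lines mark 2-fold. Pierce1 and Foxj1 lie furthest from 0 on both arrays, at 2.47 and 1.95 on the withdrawal array and -2.41 and -1.64 on the other.

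Foxj1, the forkhead factor that drives motile ciliogenesis, had a normalized log2 signal of 7.78 in green of the withdrawal array and 9.73 in its red. On the array labelled Bcl-2 it was 9.69 in green and 8.05 in red. The high channels were thus red of the withdrawal array and green of the other, although that green channel is labelled as empty vector cells with bFGF. The log2 ratios were 1.95 and -1.64, and the ratio by the scanner software was 2.28 and -2.22, each with a spot noise error of 0.29. Foxj1 was at least 2-fold under every alternative processing run here.

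Rfx2, an RFX factor that works with FOXJ1 in multiciliated cells, showed the same order of channels at a higher signal. Its log2 signals were 9.19 and 10.46 in green and red of the withdrawal array and 10.37 and 9.19 on the other, giving ratios of 1.27 and -1.18. Rfx1, a broadly expressed family member, did not share that order. It was at 10.24 and 10.20 on the withdrawal array and at 9.88 and 10.38 on the other, with ratios of -0.03 and 0.50. Rfx3, Rfx4, Mcidas and Myb, the last 2 acting in cells that commit to many cilia, had no named probe.

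The promoters of the called genes were read for the X-box, since an RFX gene was among them. The table of RefSeq promoters (GRCr8) gave windows for 46 members, and the 250 bases before the start were searched on both strands. The arm GTTGCC, which reads GGCAAC on the other strand, stood in 19 of 46 member promoters (41.3%), against 2719 of 27457 promoters in all (9.90%). It was in 4 of 5 regulator promoters, 5 of 9 of the spoke, central pair and nexin group and 3 of 6 of the transport group, but in 1 of 13 of the dynein group. The forkhead core GTAAACA, which reads TGTTTAC on the other strand, stood in 3 of 46 (6.52%) against 3.25% in all. Median GC content was 55.4% in the member promoters and 52% in all. A match is a run of letters and was not tested as a binding site. Of the genes called on both arrays, Pierce1 and Rfx2 have a promoter in the table and both hold the arm, shown in capitals, in the 250 bases before their starts:
Pierce1, chr3:32199562-32199811, minus strand: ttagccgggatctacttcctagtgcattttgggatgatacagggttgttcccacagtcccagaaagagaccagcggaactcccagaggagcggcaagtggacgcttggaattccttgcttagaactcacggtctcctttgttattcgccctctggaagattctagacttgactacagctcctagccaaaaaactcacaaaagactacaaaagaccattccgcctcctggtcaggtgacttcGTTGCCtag
Rfx2, chr9:1758147-1758396, minus strand: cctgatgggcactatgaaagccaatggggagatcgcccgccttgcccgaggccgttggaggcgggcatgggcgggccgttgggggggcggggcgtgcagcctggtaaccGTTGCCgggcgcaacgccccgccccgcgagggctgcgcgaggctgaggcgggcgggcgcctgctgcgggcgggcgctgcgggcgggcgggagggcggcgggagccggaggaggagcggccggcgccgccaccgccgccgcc

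**Figure D3:**
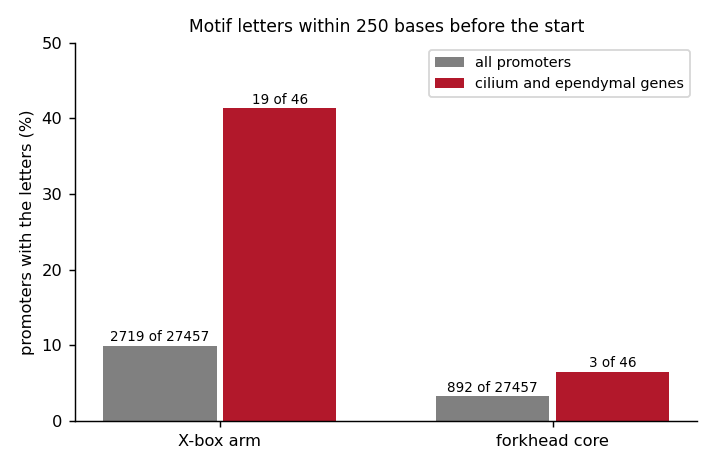
Share of promoters (y axis, percent) that hold the letters of an X-box arm or a forkhead core in the 250 bases before the gene start, for all promoters and for the cilium and ependymal genes, with counts above the bars. The X-box arm stands in 41.3% of the member promoters and 9.90% of all.

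The surroundings of the arm in the 11 measured members that hold it are set out in windows of 30 bases, each read 5′ to 3′ on the strand that spells GTTGCC, so that the opposite arm of an X-box, if present, follows the capitals:
Cfap20, chr19:9614811-9614840, minus strand: ggaactcgGTTGCCaagggactattccccg
Dnai2, chr10:100258951-100258980, minus strand: gtttaccgGTTGCCtagcaaccctggctgg
Ift81, chr12:39618595-39618624, minus strand: tggcaacgGTTGCCatgcagtgatgtcact
Ift88, chr15:35688937-35688966, minus strand: gcccagccGTTGCCaggtgcggctccaagg
Iqcg, chr11:81235172-81235201, minus strand: taatacgtGTTGCCgcttacacagacgaag
Iqcg, chr11:81235276-81235305, plus strand: cgcgtcacGTTGCCatagctacccattagt
Kif3a, chr10:38226529-38226558, plus strand: tttgggacGTTGCCagcgccaggagctcct
Kif3a, chr10:38226634-38226663, plus strand: ccgtaggcGTTGCCccagtctggcgtccat
Kif9, chr8:119338063-119338092, plus strand: ggcttcccGTTGCCatggcgactgtgtaca
Pierce1, chr3:32199549-32199578, minus strand: gtgacttcGTTGCCtagcaacaggacgccc
Rfx1, chr19:40996816-40996845, minus strand: tagcaacaGTTGCCccggtgagggaaacgg
Rfx2, chr9:1758266-1758295, minus strand: tggtaaccGTTGCCgggcgcaacgccccgc
Tekt1, chr10:57479139-57479168, minus strand: tgcgtccgGTTGCCatagtgaccgcagttt
This search was added after the data were seen. In Pierce1 and Dnai2 the arm was followed, with at most 3 bases between, by an opposite arm, taken as AGCAAC, by AGTAAC, by GGCAAC or by GGTAAC. In the full 300 bases, which include 50 after the start, 4 of 46 member promoters (8.70%) held both arms, against 0.579% of all, and the others were Hydin and Tekt2. The pair of arms in Pierce1 spans its start, and so was not complete in the 250 bases before it. The median log2 ratio of measured members with the arm was 0.36 on the withdrawal array (11 genes) and 0.25 for those without (12 genes). On the array labelled Bcl-2 the medians were -0.33 (10 genes) and -0.23 (13 genes).

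Pierce1, a protein of the inner wall of the axonemal doublet, had the ratio furthest from 0 of all members on both arrays. Its log2 signals were 7.64 in green and 10.11 in red of the withdrawal array, and 10.05 in green and 7.64 in red of the other. The ratios were 2.47 and -2.41, and by the scanner software 3.12 with a spot noise error of 0.36 and -3.38 with 0.38. The low channels of the arrays, green on the first and red on the second, stood within 0.01 of each other.

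Enkur, a calmodulin-binding protein of the same wall, gave the same order at lower signal. Its log2 signals were 7.21 and 8.12 on the withdrawal array, where its ratio of 0.91 fell short of 2-fold, and 8.19 and 7.15 on the other, where it was called at -1.04. By the scanner software Enkur was at 1.65 and -2.57, past 2-fold on both.

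Cfap20, a conserved protein of the inner junction of the doublet that is also found in cells without motile cilia, ran the other way. Its log2 signals were 13.86 in green and 12.85 in red of the withdrawal array and 12.83 and 13.70 on the other. It was the 1 member at least 2-fold lower in red on the withdrawal array, at -1.0, which is at the limit, and was at 0.86 on the array labelled Bcl-2. Its 10 spots differed with an SD of 0.02 and 0.03. Median centring without loess and the authors' deposited value table each left it short of 2-fold on the withdrawal array.

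**Figure D4:**
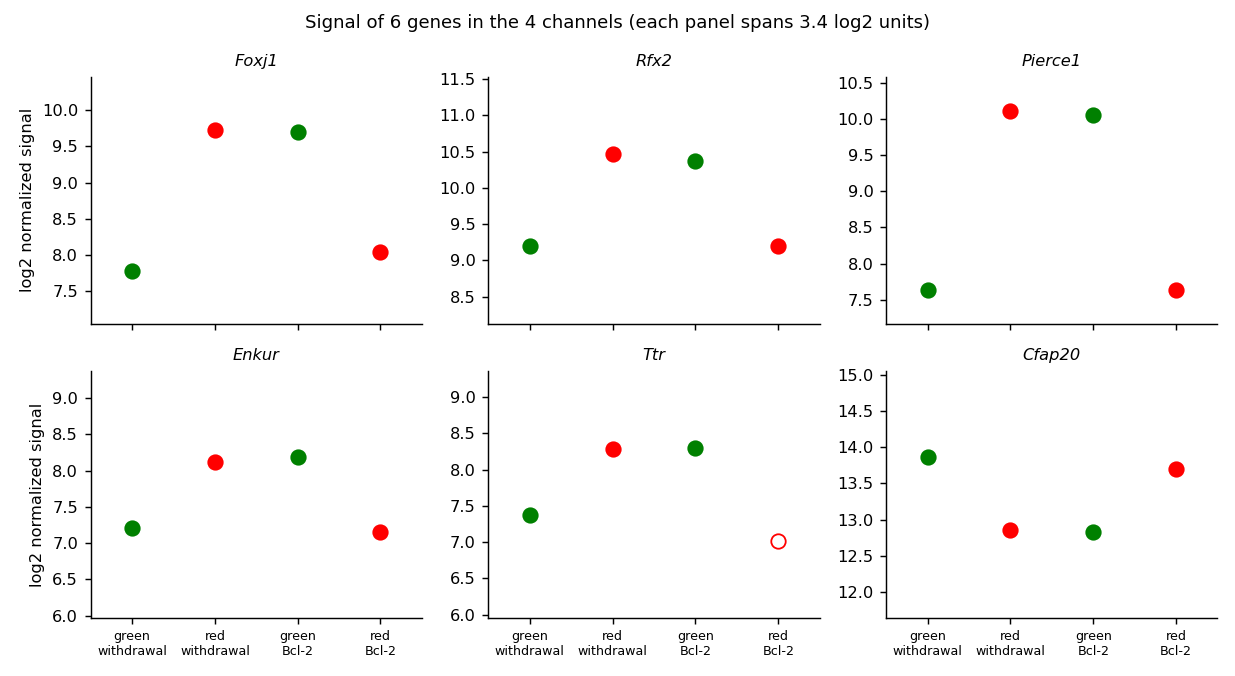
Normalized log2 signal (y axis) of 6 genes in the 4 channels (x axis), 1 probe and 1 array per point, green and red points for the Cy3 and Cy5 channels; the open point was not well above background. For Foxj1, Rfx2, Pierce1, Enkur and Ttr red of the withdrawal array and green of the array labelled Bcl-2 are the high channels, and for Cfap20 they are the low ones.

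The other genes of the doublet wall lay within 2-fold on both arrays by the loess ratio. Cfap52 was at 0.14 for bFGF withdrawal and 0.55 on the other array, and Tubb4b, a beta tubulin of axonemes that many other cells also express, at 0.35 and 0.09. Tekt4, one of the tektin filaments, was at -0.20 and 0.14, and Cfap126, a basal body protein of multiciliated cells, at -0.05 and 0.15. Tekt1 at 0.36 and 0.17 was well above background in red alone on the withdrawal array, where red was at least 1.28-fold brighter. Cfap45 at 0.31 and -0.42 was measured in red alone on the first array and in green alone on the second. It was at least 1.24-fold and 1.34-fold brighter there, and by the scanner software it was past 2-fold, at 1.21 and -2.12. Tekt2 was not well above background in any channel. Each of these bounds divides the bright signal by the dim one, or by the lowest signal that counts as well above background if that is higher, and is open to dye bias.

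None of the 6 measured dynein, docking and ruler genes was called. At the shares over all genes, 2.42% higher on the first array and 2% lower on the second, 0 of 6 is no result. The median of these genes was 0.21 on the withdrawal array, with 5 of 6 above 0, and -0.16 on the other, with 5 of 6 below. Dnai2, an intermediate chain of the outer arm, was highest on the withdrawal array, with log2 signals of 7.09 and 7.64 there, 7.39 and 7.10 on the other, and ratios of 0.55 and -0.30. Its partner Dnai1 was at 0.12 and -0.33, in red alone on the first array (at least 1.08-fold) and in green alone on the second (at least 1.26-fold). Dnali1, a light intermediate chain of an inner arm, was at 0.37, at least 1.29-fold higher in red, and at -0.00 on the other array. Dnal1, an outer arm light chain, lay opposite at -0.29 and 0.32, and Ccdc40, which with Ccdc39 sets the spacing of the arms, was at 0.29 and -0.23. The probes of Dynlrb2, a light chain shared with transport dynein, disagreed on the withdrawal array, at -0.09 and 0.34, and the gene was at 0.12 and -0.09.

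Several dynein genes lay past 2-fold by another ratio. By the scanner software Dnai1 was at 1.03, Dnai2 at 1.39 and Dnali1 at 1.45 on the withdrawal array, all past 2-fold, with spot noise errors of 0.35, 0.28 and 0.37. On the other array Dnai1 was at -1.41, Dnai2 at -0.80 and Dnali1 at -0.29. Dnah1 and Ccdc114 (now Odad1) were not well above background on either array. Dnah5, Dnah7, Dnah9, Dnah11 and Ccdc39 had no named probe, so 4 of the 5 heavy chain motors were not read.

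Of the radial spoke, central pair and nexin genes 5 were measured on at least 1 array, and none was called. With 2.42% of all genes higher on the first array and 2% lower on the second, so small a group need hold no call. Rsph1, a protein of the spoke head, had log2 signals of 8.20 and 8.90 on the withdrawal array and 8.70 and 8.23 on the other, with ratios of 0.70 and -0.47. Rsph9, its neighbour in the spoke head, had signals of 8.55 and 8.94, then 8.96 and 8.42, with ratios of 0.39 and -0.54. Both had the channel order of Foxj1, short of 2-fold. Iqcg, a nexin link protein, was at -0.30 on the withdrawal array and at -0.17, in green alone, on the other. Kif9, a kinesin of the central pair, was measured on the withdrawal array alone at 0.16, at least 1.01-fold. Spef2, a central pair protein, was measured on the other alone at -0.27, at least 1.21-fold. By the scanner software Kif9 was at 2.05 and Spef2 at -2.13 there, with spot noise errors of 0.82 and 0.87. Spag6, Spag16 and Cfap206 were not well above background on either array, and Rsph4a, Spag17, Hydin and Lrrc23 had no named probe.

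All 7 transport genes with a probe were well above background in every channel, and none was called. At the shares over all genes, 2.42% higher on the first array and 2% lower on the second, 0 of 7 is no result. Their median was 0.21 for bFGF withdrawal and -0.36 on the other array. Kif3a, a subunit of the kinesin that carries cargo outward, was at 0.40 and -0.45, with SDs of 0.04 and 0.05 over its 10 spots. Of the outward transport complex, Ift88 was at 0.53 and -0.36, Ift81 at 0.28 and -0.42, and Ift172 at 0.21 and -0.38 with an SD over 10 spots of 0.03 and 0.01. Ift57 at -0.06 and -0.19, Ift74 at -0.08 and 0.05 and Ift80 at 0.03 and 0.12 were nearest to 0. For Kif3a and Ift172 these differences exceed the spread between spots, but no spread between cultures is known. Ift122 and Ift140 had no named probe. Of the remaining cilium genes, Ak7, Ak8 and Capsl were not well above background on either array, Ccdc113 had no named probe and the symbol Pifo was not matched.

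Ttr, the thyroid hormone carrier that marks choroid plexus epithelium, had log2 signals of 7.38 (green) and 8.28 (red) on the withdrawal array. On the other array it was 8.30 in green and 7.02, not well above background, in red. Its ratios were 0.90 and -1.28, the second at least 2.42-fold lower in red. The other defining genes of choroid plexus were mostly dim. Of 16 markers, 9 were not well above background on either array, namely Kcnj13, Folr1, Clic6, Prlr, Kl, Slc4a5, Cldn2, Lmx1a and Sostdc1. Otx2 was seen in red of the withdrawal array alone, at least 1.19-fold, and Aqp1 was at -0.02 and -0.07. Msx1 at -0.01 and -0.02 and Igf2 at -0.14 and -0.15 did not follow Ttr, while Trpv4 at 0.73 and -0.43 had its sign. Enpp2, which other cells express as well, was at 1.34 and -0.52. The summed signal of the 7 measured markers was 1265 and 1794 in green and red of the withdrawal array and 1669 and 1262 on the other. This sum rests in part on Enpp2, with log2 signals of 7.59 and 8.93, then 8.58 and 8.07.

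Ependymal markers were likewise seen in part. Of 12, Tmem212, Rarres2 and Meig1 were not well above background, and Ccdc153 (now Drc12) was at -0.27 and -0.34, the second in green alone. S100b at 1.22 and -0.96 and Acta2 at 2.19 and -1.93 had the sign of Foxj1 on both arrays. Both also mark other cells: S100b is in the astrocyte list and Acta2 in the fibroblast list as well. The 2 probes of S100b shared that sign but differed in size, at 0.54 and 1.91 on the withdrawal array and at -0.26 and -1.65 on the other. Vim at -0.49 and 0.56 and Mia at -0.46 and 0.12 had the opposite sign, and Cd24 was at -0.04 on both. The ependymal list as a whole had medians of 0.12 and -0.34 over 9 genes. Its summed signal was 74504 in green and 68377 in red, then 64461 and 70616, the reverse order of the choroid plexus sum. Vim and Cd24, the brightest of the list, carry most of this sum. Vim had log2 signals of 15.45 and 14.96, then 14.79 and 15.35, and Cd24 stayed between 14.61 and 14.69. The order of the sum is thus that of Vim. By gene, 5 of 9 lay above 0 on the withdrawal array and 7 of 9 below 0 on the other. Astrocyte markers had the sign of Foxj1 on both arrays. Of 12, 11 were measured, and all 11 lay above 0 on the withdrawal array and below 0 on the other. Their medians were 0.78 and -0.80. Their summed signal was 71531 and 141840 in green and red of the withdrawal array and 145520 and 75775 on the other, and Gfap was not well above background. Of the astrocyte markers, Aqp4 had 2 kept probes that disagreed in sign on the withdrawal array, at -0.35 and 0.59. Fibroblast and meningeal markers summed to 8895 and 18139, then 17029 and 6104, over 9 genes. They too had the sign of Foxj1, so that sign was not particular to astrocyte markers. All 9 lay above 0 on the withdrawal array, with a median of 0.45. All 8 measured on the other array lay below 0, with a median of -1.09. Of 8 neuronal markers 6 were measured, with medians of 0.55 and -0.41. All 6 lay above 0 on the withdrawal array and 5 of 6 below 0 on the other, with Tubb3 at 1.03 and -0.58. Their summed signal was 12876 and 20018, then 18854 and 13421. The part of these cell types in the ratios of the cilium genes was not tested. In such bulk RNA, fewer cells of a type and less RNA per cell cannot be told apart. Of the neural precursor markers 8 of 9 were measured, with medians of 0.37 and -0.27. Of these 8, 6 lay above 0 on the withdrawal array and 6 below 0 on the other. Fabp7, the fatty acid carrier of radial glia, was at 1.26 and -0.91. Prom1 was at 0.55 and -0.56, Hes1 at 0.52 and -0.69, Hes5 at 0.61 and 0.09 and Pax6 at 0.23 and -0.14. Nes was at 0.18 and -0.28, Sox2 at -0.12 and -0.27 and Vim at -0.49 and 0.56.

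Wider lists of the same machinery held 1 called gene. Calls made up 2.42% of the whole array in the higher direction on the withdrawal array and 2% in the lower on the other. With such rates, lists of this size need hold few calls or none, so their call counts are no result. Of 86 other axonemal genes 40 were measured on the withdrawal array, with a median of 0.07, and 32 on the other, with a median of -0.11. Drc3, of the nexin-dynein regulatory complex, was the 1 called, at 1.48 and -1.31. Cfap95 was lowest on the withdrawal array at -0.37, and Tuba1a, an alpha tubulin abundant in neurons, was highest on the other at 0.43. Of 62 further transport, BBSome and primary cilium genes, 46 and 44 were measured and none was called, with medians of -0.00 and 0.01. They ran from B9d1 at -0.58 to Mks1 at 0.58 on the withdrawal array and from Bbs4 at -0.69 to B9d1 at 0.46 on the other; Mks1 and B9d1 act in the transition zone and Bbs4 in the BBSome. The multiciliation list had 6 and 4 of 17 genes measured, none called. Gmnn, the geminin gene of dividing cells, was lowest on the withdrawal array at -0.53 and highest on the other at 0.50, while Rfx5 was highest on the first at 0.14 and Ankrd54 lowest on the second at -0.11.

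**Figure D5:**
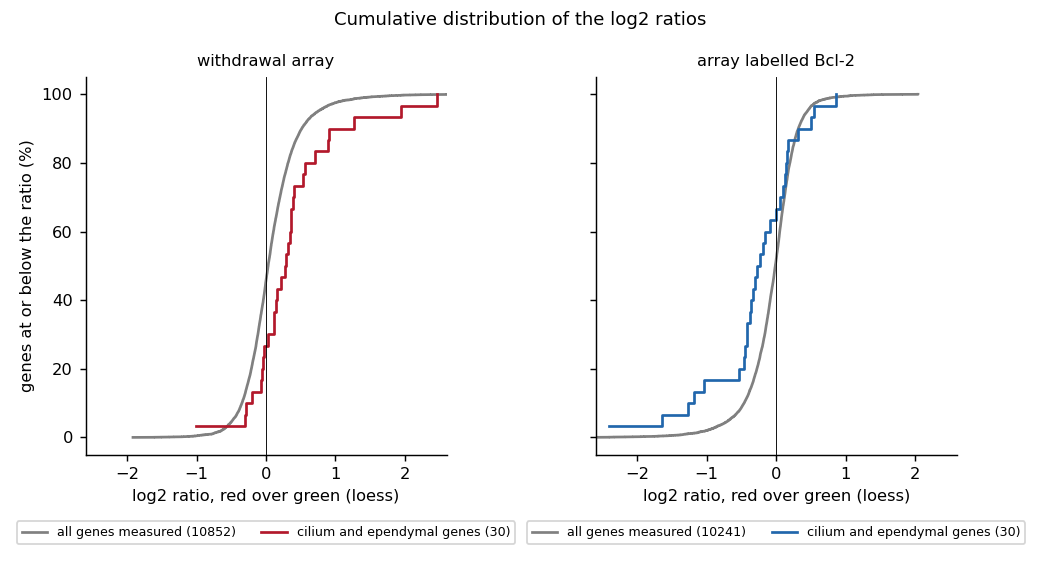
Cumulative share of genes (y axis, percent) by log2 ratio of red over green (x axis) for all measured genes and for the 30 measured cilium and ependymal genes of each array. The member curves lie to the right of all genes on the withdrawal array, with medians of 0.28 and 0.03, and to the left on the array labelled Bcl-2, with medians of -0.25 and -0.01. The members were chosen with earlier results of these data known.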

How the data were processed

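Per the file headers, Feature Extraction 11.5.1.1 (build rn4) wrote for every spot the median pixel intensity and that of the background around it, flags of 0 or 1, and a log10 ratio (red over green) with a noise error. The submitters' processing notes name version 8.5.1.1. A deposited table gives 1 linear ratio per probe and array, with column medians 0.932 and 0.944; no source states how it was scaled, centred or directed. Set against the processed signals of 28392 probes, within 0.05 on the log2 scale after a constant, its first column equalled the red to green quotient of its own array in 100% of probes. The second matched its own array for 7.05% and the product of both arrays for 100%, so the quotient of the columns stood for that array.

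Median signals were background-corrected by normexp (offset 50) and loess-normalized within the array (control spots had weight 0) in limma 3.58.1 (R 4.3.3), a step tested on simulated data. Gene values were computed in Python 3.11.15 with pandas 2.3.3. Outlier spots (534 and 576) were left out and spots of a probe averaged. Of 30367 probes, 20328 and 19026 were kept as well above background in at least 1 channel. A gene is the median of its kept probes, named through a RefSeq table of GRCr8 (60.4% of probes). Channel signals are after Aquantile scaling. All measured members were named, and of the wider lists the called genes and each list's highest and lowest. Members and lists were chosen with earlier results of these data known. Alternatives were a normexp offset of 10, the scanner software's ratio, median centring, the value table, a filter on both channels, and the brightest probe.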

Additional observations from a re-analysis of the deposited data

Results flagged for a closer look

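Foxj1 passed 2-fold on each array with opposite sign: its log2 ratio was 1.95 for bFGF withdrawal and -1.64 on the array labelled Bcl-2. Rfx2 did the same at 1.27 and -1.18, and Pierce1 at 2.47 and -2.41. The difference between the arrays was not tested, because there is 1 array for each.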

How the results depend on the processing

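The members' ratios, counts and medians were recomputed under 6 alternatives, and no called value changed sign. The filter on both channels gave values for 31 of 36 results on the withdrawal array and 29 of 36 on the other. Wider lists, cell type markers and promoter splits were not recomputed. On the withdrawal array 4 members were at least 2-fold, and 11 by the scanner software's ratio as by the value table. On the array labelled Bcl-2 the 5 became 8 and 10. Over all genes, 314 on the withdrawal array became 536 with a normexp offset of 10, 1124 by the scanner software's ratio, 507 by median centring without loess and 1277 by the value table. On the other array 262 became 1048 by the scanner software's ratio and 1105 by the value table. There the split of 57 higher and 205 lower became 358 and 690 by the scanner software's ratio. Median centring and the value table raised the median of all genes on the withdrawal array by 0.14 and 0.13. Cfap20 was then at -0.70 and -0.83. The cause was not tested. No paired analysis was possible because each comparison has 1 array, and no replicate could be left out. Signal over background limits the dim genes: 25 and 24 members were well above background in both channels.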
